A study of Arabidopsis thaliana with 48 samples.

Results

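The MYB-bHLH-WD40 anthocyanin regulators are 10 Arabidopsis thaliana loci, taken from 33602 loci counted in the whole series. They were chosen by name and locus, not by a cut on a measured value, and they put the activators and the repressors of one pathway side by side. Earlier results of these data were known when they and the gene lists used below were chosen. The MYB activators are PAP1 (AT1G56650), MYB90 (AT1G66390), MYB113 (AT1G66370) and MYB114 (AT1G66380). The bHLH partners are TT8 (AT4G09820), GL3 (AT5G41315) and EGL3 (AT1G63650), and the WD40 protein is TTG1 (AT5G24520). The repressors are MYBL2 (AT1G71030) and CPC (AT2G46410). All 10 were found in the count tables and in the gene annotation.

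Leaf RNA of 'Columbia' plants, aged 6 weeks and kept at 23 °C by day and 5 °C by night with 10 h of light, was sequenced in 12 groups of 2 replicates. In the step treatment plants went from light 100 to light 700 (photon flux density in µmol per square metre and second), and their 2 groups carry the labels day 0.6 and day 2.57. The diurnal groups grew at light 250 and carry the labels day 0.083, 0.25, 0.375, 0.625, 0.75 and 0.916. The growth light groups had spent 2 weeks at light 100, 250, 450 or 700 and carry the label day 0.583. The zero point of these day labels is not given, and the protocol puts the step at about 20 h, so how long either step group had stood at light 700 is not known. All groups were wild type and shared the cold nights. Whole rosettes were ground, RNA of 4 to 6 plants per treatment was extracted plant by plant, and the extracts were combined at random into the 2 replicates. Each p-value below therefore measures the spread between pools of plants grown together.

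In flowering plants, MYB, bHLH and WD40 proteins bind one another and switch on the late genes of anthocyanin synthesis, whose purple pigments accumulate in leaves under strong light and cold. The MYB partner largely sets which genes are bound, the bHLH partner joins it to TTG1, and the same bHLH and WD40 proteins also serve trichomes, root hairs and the seed coat with other MYB partners. MYBL2 and CPC lack an activating MYB function and compete for the bHLH partner, so their proteins act against the activators. Their transcripts need not run opposite to those of the activators.

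The 4 MYB activators resemble one another, which bears on how far their read counts can be told apart. PAP1 lies at chr1:21233555-21235292 on the minus strand of TAIR10.1, and MYB113 (chr1:24753589-24754761), MYB114 (chr1:24757298-24758953) and MYB90 (chr1:24763941-24765541) lie on the plus strand further along that chromosome. The first 90 coding bases of each, 5′ to 3′ from the RefSeq assembly, are shown with each difference from PAP1 in capitals, which number 10 in MYB90, 14 in MYB113 and 9 in MYB114.
PAP1 (chr1:21235000-21235089, minus strand): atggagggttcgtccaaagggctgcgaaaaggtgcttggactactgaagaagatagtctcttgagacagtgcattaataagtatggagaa
MYB90 (chr1:24764052-24764141, plus strand): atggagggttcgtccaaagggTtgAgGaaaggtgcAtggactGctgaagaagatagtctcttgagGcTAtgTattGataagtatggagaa
MYB113 (chr1:24753634-24753723, plus strand): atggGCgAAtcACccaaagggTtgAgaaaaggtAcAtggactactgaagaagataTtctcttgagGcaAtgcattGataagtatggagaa
MYB114 (chr1:24757413-24757502, plus strand): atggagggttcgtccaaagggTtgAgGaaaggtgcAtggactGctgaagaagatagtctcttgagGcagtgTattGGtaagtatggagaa
MYB90 and MYB114 share the longest identical coding run, 67 bases, and the other pairs share runs of 25 to 42 bases. Of the 50-base windows of the coding sequence, 18 of 701 in MYB90 and 18 of 371 in MYB114 occur in another of the 4 genes, against 0 of 698 in PAP1 and 0 of 692 in MYB113. The annotated coding sequence of MYB114 ends after 420 bases, whereas those of PAP1, MYB90 and MYB113 have 747, 750 and 741 bases. How reads that match several genes were counted is not given in the sources used here, so counts of MYB114, and to a lesser degree of MYB90, are uncertain. A transcribed pseudogene, AT1G56640, also matches all 4 MYB genes over 114 to 129 bases, and it had 0 counts in all 24 libraries.

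The upstream sequences of PAP1, MYB90 and MYB114 are related as well, and the windows below are shown because these genes are compared throughout. Capitals mark the longest run common to the promoters of the 3 genes, taken as 250 bases before to 50 after each annotated start, with 20 bases on each side.
PAP1 (chr1:21235290-21235344, minus strand): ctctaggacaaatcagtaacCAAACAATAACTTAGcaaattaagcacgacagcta
MYB90 (chr1:24763791-24763845, plus strand): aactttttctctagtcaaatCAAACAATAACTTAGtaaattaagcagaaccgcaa
MYB114 (chr1:24757186-24757240, plus strand): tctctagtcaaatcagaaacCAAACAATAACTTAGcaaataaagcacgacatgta
The 15-base run begins at position -32 in PAP1, -130 in MYB90 and -92 in MYB114, counted from the annotated start. Searched on both strands, it occurred in 3 of the promoters of 27443 protein-coding genes, which are these 3. The G-box CACGTG, searched on both strands, occurred among the 10 members in MYB90 at -46 and in MYB114 at -9, and 7.68% of all 27443 promoters hold it. These matches describe the letters in the windows only.

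Total counts per library, with both lanes summed, ran from 20418095 to 36331053. Levels are given in CPM, read counts adjusted for library size under one scaling of the 24 libraries, and changes as log2 fold changes with their standard error (SE) from edgeR, with p-values adjusted over all loci tested and a threshold of 0.05. Replicates lay farthest apart at diurnal days 0.916 and 0.75. The leaf markers RBCS1A, LHCB1.3, CA1 and RCA, which encode photosynthetic proteins, were at 1242 CPM or more in every library. The root hair markers EXPA7 and RHD6, the seed coat markers BAN, TT16 and TT2, and the floral marker AP3 had at most 10 counts in any library, whereas the floral marker AG ran between 0.682 and 2.44 CPM. At light 700 compared with light 100, all 4 leaf markers were lower, with a median log2 fold change of -0.96, and their CPM summed to 24577 and 22477 at light 700 against 49309 and 50155 at light 100. Their part in the results on growth light was not tested. In such bulk samples fewer cells of a type and less RNA per cell cannot be told apart.

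Under constant growth light, 5 of the 9 regulators tested were higher at light 700 than at light 100 and 0 were lower, namely 3 MYB activators and 2 bHLH genes. TTG1, EGL3 and both repressors did not pass. Among all 20669 loci tested, 40% passed in either direction and 19.7% were higher. The 5 were also the ones with an unadjusted p under 0.05, and DESeq2 called 5. MYB114 had too few counts to be tested here.

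PAP1, the main leaf activator, had 2.05 and 1.72 CPM at light 100, 30.6 and 31.6 CPM at light 250, 49.6 and 78.1 CPM at light 450, and 58.2 and 50.5 CPM at light 700. Light 100 thus stood below all other growth light groups with no overlap, while light 700 and light 450 overlapped. Its log2 fold change at light 700 over light 100 was 4.81 (SE 0.23, edgeR adjusted p = 6.67e-08).

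MYB90, its close relative with the same targets, had 0 counts in both libraries at light 100, 7.56 and 6.34 CPM at light 250, 22.6 and 40.2 CPM at light 450 and 20.3 and 22.4 CPM at light 700. MYB90 was thus at least 165-fold higher at light 700 than at light 100, taking 3 counts per library as the level that 0 counts allow. This floor covers counting error only and treats counts as independent of one another. Of the counts from 1 to 10, 70.4% were even. The variance between the 2 lanes of a library was 1.85 to 1.91 times that of independent counts. Counts were thus not independent, and 3 counts may be too low a floor. Every fold given as "at least", here and below, holds only for that floor and may be too high. By how much was not tested. MYB113, another activator of the tandem group, had 3.58 and 2.14 CPM at light 700 against 0.211 and 0.172 CPM at light 100, a log2 fold change of 3.83 (SE 0.47, edgeR adjusted p = 4.99e-05). MYB114 had 0 and 0 counts at light 100, 6 and 1 counts at light 250, 5 and 3 counts at light 450 and 6 and 2 counts at light 700, so that no level can be set for it in these groups.

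TT8, the bHLH partner that the late anthocyanin genes depend on, had 0.543 and 1.12 CPM at light 100, 10.3 and 7.67 CPM at light 250, 25.6 and 38.3 CPM at light 450 and 25.2 and 22.5 CPM at light 700. Its log2 fold change at light 700 over light 100 was 4.90 (SE 0.29, edgeR adjusted p = 3.13e-07). GL3, best known from trichome formation, stayed far lower, with 1.56 and 1.47 CPM at light 700 against 0.181 and 0.0861 CPM at light 100. The GL3 change was 3.38 on the log2 scale (SE 0.49, edgeR adjusted p = 0.000176). Without replicate 1 of light 100, GL3 had 4.07, and its changes over light 100 at light 250, step day 0.6 and step day 2.57 became 2.51, 4.73 and 5.23. The start of GL3 overlaps AT5G06145, a noncoding gene on the opposite strand, and no use of strand is stated, so a share of its reads may belong to that gene. EGL3, a bHLH gene that acts beside GL3, had 1.20 and 1.29 CPM at light 700 against 1.12 and 0.732 CPM at light 100 and did not pass (log2 fold change 0.39, SE 0.34). Thus 2 of the 3 bHLH genes were higher at the higher light and the third was not called.

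TTG1, the WD40 protein shared by every form of the complex, had 43.4 and 42.7 CPM at light 700 against 40.5 and 42.4 CPM at light 100. Its log2 fold change was 0.04 (SE 0.07, edgeR adjusted p = 0.676). Under total-count scaling, where the median of all loci tested moved by 0.19 on the log2 scale, that change became 0.24 and passed, so no direction is given for TTG1 here. MYBL2 had 35.5 and 38.4 CPM at light 700 against 41.2 and 38.7 CPM at light 100, with a log2 fold change of -0.13 (SE 0.11) that turned to 0.07 under total-count scaling. CPC, better known for root hair fate, had 0.930 and 1.85 CPM at light 700 against 0.755 and 0.904 CPM at light 100 and did not pass.

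**Figure D1:**
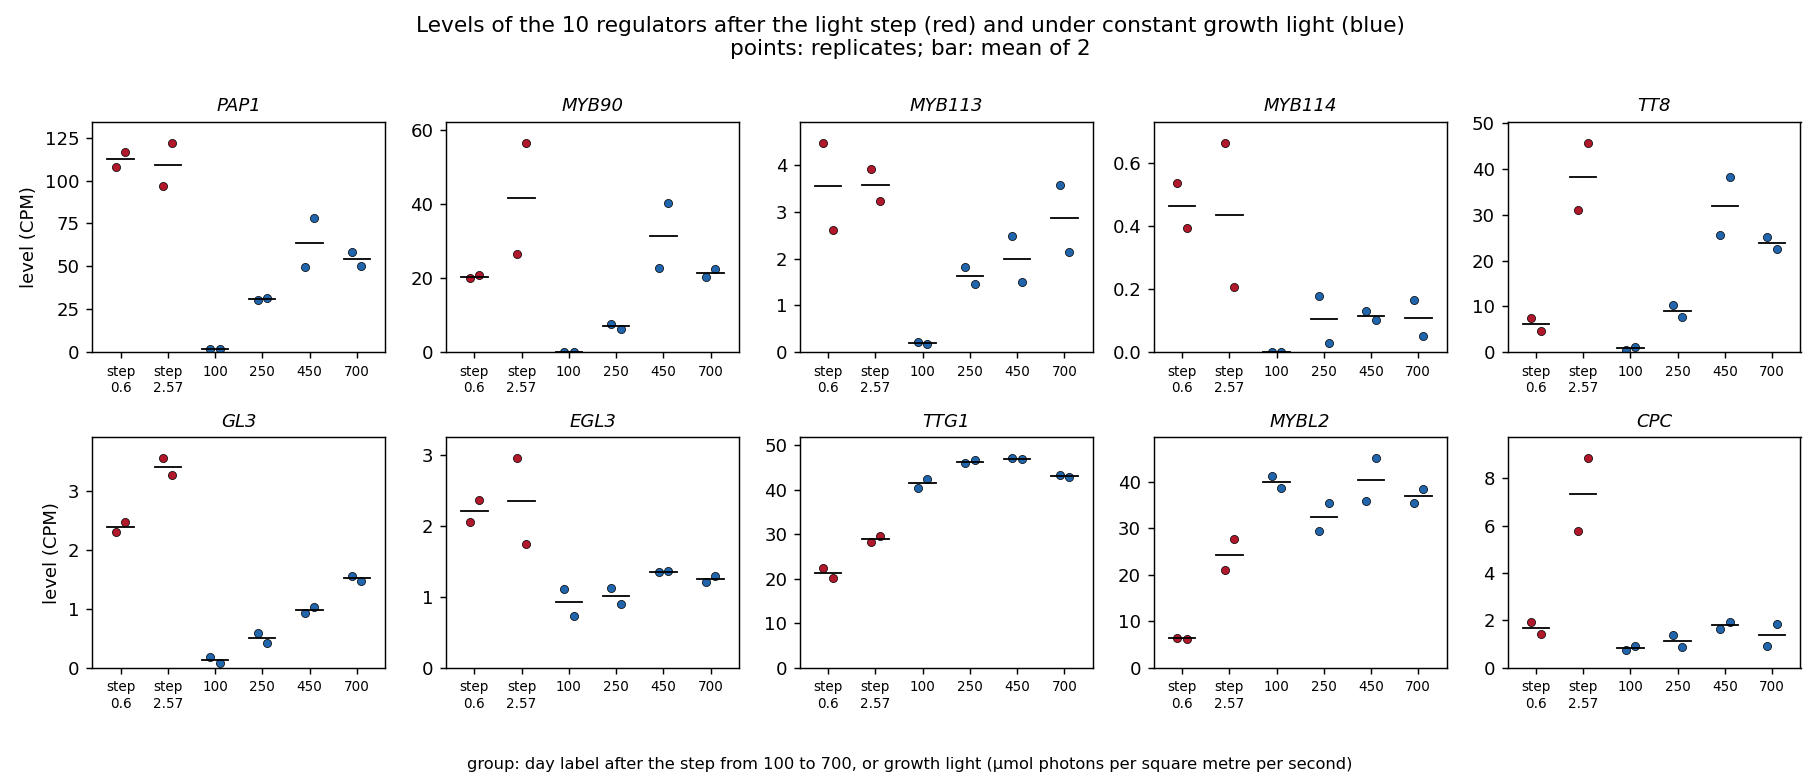
Level in CPM (vertical axes, each from 0) of each regulator in the step groups (red) and at growth light 100 to 700 (blue), with 1 point per replicate and a bar at the mean of 2. PAP1 reaches 108 and 117 CPM at step day 0.6, above every growth light library, where MYBL2 is at 6.37 and 6.29 CPM.

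The same 5 regulators were already higher at light 250 than at light 100, and 3 of them were higher again at light 450 than at light 250. At light 250 compared with light 100, 5 of 9 members passed, all higher, with 28.7% of loci passing (14.2% higher, 14.4% lower), and 7 had an unadjusted p under 0.05. PAP1 was higher by 4.02 (SE 0.23), TT8 by 3.50 (SE 0.31), MYB113 by 3.04 (SE 0.50) and GL3 by 1.81 (SE 0.56) on the log2 scale, and MYB90 was at least 53.8-fold higher. The GL3 call rested on single libraries: its edgeR adjusted p was 0.0289 and became 0.0663 and 0.131 without replicate 1 and replicate 2 of light 100, 0.157 without replicate 1 of light 250, and 0.0501 and 0.0502 without either replicate of light 700. DESeq2 gave 0.0521 for it. The others with an unadjusted p under 0.05 were TTG1 and the repressor MYBL2. MYBL2 had 29.3 and 35.4 CPM at light 250 against 41.2 and 38.7 CPM at light 100, a log2 fold change of -0.31 (SE 0.12, edgeR adjusted p = 0.0651). It was called lower with no filter beyond 1 read (0.0235), the replicate block (0.0308), lane 1 alone (0.0367), only the 2 groups compared (0.0252), without replicate 2 of light 250 (0.0403) and without replicate 1 or replicate 2 of light 450 (0.0172 and 0.0173). TTG1 had 0.16 (SE 0.07, edgeR adjusted p = 0.112) and was called higher under total-count scaling.

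At light 450 compared with light 100, 6 of 9 members were higher, with 43.7% of loci passing and 21.4% higher. The sixth was CPC, with 1.66 and 1.95 CPM at light 450 and a log2 fold change of 1.11 (SE 0.40, edgeR adjusted p = 0.0429). The CPC call was lost without any one of the 4 libraries compared, with adjusted p between 0.0564 and 0.193, and DESeq2 gave 0.0601. At light 450 compared with light 250, PAP1, MYB90 and TT8 were higher, by 1.02 (SE 0.16), 2.16 (SE 0.23) and 1.82 (SE 0.20) on the log2 scale, while GL3 (0.93, SE 0.40) and MYB113 (0.29, SE 0.34) did not pass, and 8.34% of all loci passed, 2.99% higher and 5.36% lower. These 3 calls held without either replicate of light 450.

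Between light 700 and light 450 edgeR called 0 of 9 members and 0.0339% of loci (0.0242% higher, 0.00968% lower). An unadjusted p under 0.05 was reached by MYB90 and TT8, lower at light 700 by log2 fold changes of -0.55 and -0.42, and DESeq2 called 0. Replicate 2 at light 450 stood above replicate 1 in PAP1, MYB90 and TT8. Without replicate 1 of light 450, PAP1, MYB90 and TT8 were called lower at light 700, with log2 fold changes of -0.52, -0.91 and -0.68. As a trend on log2 of light over the 4 levels, 5 members passed, all upward (background 37.8%, with 18.2% upward and 19.6% downward), with slopes between 1.09 and 2.05. Without light 100 all 5 calls were lost, with edgeR adjusted p from 0.0868 for GL3 to 0.323 for MYB113, and PAP1 had the slope 0.57.

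The genes that the complex acts on were followed in a list of 11 late anthocyanin genes, the enzymes and transporter that turn flavonoid precursors into stored anthocyanins. All 11 were higher at light 700 than at light 100, with a median log2 fold change of 5.88 beside 0.00 over all loci. UF3GT, which adds a xylose, had the largest change (9.20, SE 0.32), followed by 5MAT, a malonyltransferase (7.18, SE 0.27), and LDOX, anthocyanidin synthase (7.07, SE 0.25). LDOX had 345 and 307 CPM at light 700 against 2.35 and 2.45 CPM at light 100. The 6 early flavonoid genes were also all higher (median 4.67), led by TT7 (6.46, SE 0.26), CHS, chalcone synthase (5.65, SE 0.19), and F3H (5.28, SE 0.28). The 3 flavonol MYB activators, which drive early genes without a bHLH partner, were higher too, MYB11 by 3.95 (SE 0.52), MYB12 by 2.63 (SE 0.44) and MYB111 by 1.85 (SE 0.25).

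In the step groups, the regulators differed from light 100 in opposite directions. The step and growth light groups carry different day labels. At light 250, mean MYBL2 was 4.44 CPM at diurnal day 0.375 and 28.4 CPM at day 0.25. Mean MYB90 was 6.95 CPM at growth light 250, labelled day 0.583, and 21.9 CPM at diurnal day 0.625. The part of time of day, or of separate series, in the step comparisons was not tested. At step day 0.6 compared with light 100, all 10 members passed, 8 higher and 2 lower, with 49% of loci passing (25% higher, 24% lower). PAP1 had 108 and 117 CPM at step day 0.6 against 2.05 and 1.72 CPM at light 100, a log2 fold change of 5.88 (SE 0.17, edgeR adjusted p = 7.53e-10). MYBL2, the repressor, had 6.37 and 6.29 CPM against 41.2 and 38.7 CPM at light 100, a log2 fold change of -2.66 (SE 0.14, edgeR adjusted p = 3.14e-08). TTG1 had 22.4 and 20.1 CPM against 40.5 and 42.4 CPM and was lower by a log2 fold change of -0.96 (SE 0.10). In all 3 genes the groups stood apart with no overlap. With 2 replicates per group, groups that do not differ also stand apart often, and the share of all loci that do was not counted. Statements on overlap therefore describe the values only.

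Of the other members at step day 0.6, MYB90 had 19.9 and 20.8 CPM and was at least 158-fold higher than the 0 counts at light 100 allow. MYB114 had 17 and 11 counts, at least 3.59-fold higher on the same floor, and its reads are uncertain. TT8 had 7.47 and 4.68 CPM, higher than at light 100 by 2.95 (SE 0.35), and MYB113 had 4.47 and 2.61 CPM, higher by 4.17 (SE 0.46). GL3 had 2.30 and 2.46 CPM, higher by 4.04 (SE 0.40). EGL3 had 2.05 and 2.36 CPM, higher by 1.22 (SE 0.35, edgeR adjusted p = 0.0123). This call was lost without replicate 2 of step day 0.6 (adjusted p = 0.0506) and without replicate 2 of light 100 (adjusted p = 0.0891). CPC had 1.92 and 1.43 CPM, higher by 1.03 (SE 0.40, edgeR adjusted p = 0.0469). This call was lost without replicate 1 of step day 0.6 (0.185), replicate 2 of step day 2.57 (0.0505) and replicates 1 and 2 of light 100 (0.201 and 0.0967).

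Beside plants kept at light 700, step day 0.6 showed more PAP1 and less TT8. Of the 10 members 6 passed, 3 higher and 3 lower, with 53.4% of loci passing. PAP1 had 108 and 117 CPM at step day 0.6 against 58.2 and 50.5 CPM at light 700, a log2 fold change of 1.08 (SE 0.12, edgeR adjusted p = 1.60e-05). TT8 had 7.47 and 4.68 CPM against 25.2 and 22.5 CPM at light 700, a log2 fold change of -1.93 (SE 0.24, edgeR adjusted p = 2.74e-05). The groups did not overlap in either gene. MYBL2 was lower by a log2 fold change of -2.52 (SE 0.14) and TTG1 by -0.99 (SE 0.10). Of the 4 leaf markers 3 were higher in this comparison (median 0.73), with summed levels of 37530 and 45256 CPM at step day 0.6 against 24577 and 22477 CPM at light 700. Of the 2 trichome markers, GL2, a trichome regulator, was lower (log2 fold change -0.79, SE 0.16) and GL1 did not pass. The part of these markers in the results was not tested.

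MYB90, with 19.9 and 20.8 CPM at step day 0.6 against 20.3 and 22.4 CPM at light 700, overlapped between the groups. EGL3 and GL3 passed narrowly, by 0.85 (SE 0.33, edgeR adjusted p = 0.0471) and 0.68 (SE 0.27, edgeR adjusted p = 0.0474). The EGL3 call was lost without any one of the 4 libraries compared, with adjusted p between 0.0695 and 0.168, and with DESeq2 (0.0916). The GL3 call was lost without any one of the 4 libraries compared or of the 2 of step day 2.57, with adjusted p between 0.0607 and 0.189, and with DESeq2 (0.133). The comparisons of the step groups share their light 100 and light 700 libraries, so their values are given side by side and not as separate evidence.

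At step day 2.57, PAP1 did not pass against step day 0.6, while TT8, MYBL2, CPC, MYB90 and TTG1 stood higher. All 10 members passed against light 100 (41.7% of loci, 22.2% higher and 19.5% lower), again 8 higher and 2 lower, and 8 passed against light 700 (46.3% of loci), 6 higher and 2 lower. Directly between step day 2.57 and step day 0.6, 5 members were higher and 0 lower, with 15.2% of loci passing and 7.63% higher. The same 5 had an unadjusted p under 0.05, and DESeq2 called 4. PAP1 had 96.6 and 122 CPM at step day 2.57 against 108 and 117 CPM at step day 0.6, a log2 fold change of -0.05 (SE 0.12, edgeR adjusted p = 0.805).

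TT8 had 31.0 and 45.8 CPM at step day 2.57 against 7.47 and 4.68 CPM at step day 0.6, a log2 fold change of 2.63 (SE 0.24, edgeR adjusted p = 3.87e-05). MYBL2 had 20.9 and 27.7 CPM against 6.37 and 6.29 CPM, a log2 fold change of 1.93 (SE 0.14, edgeR adjusted p = 8.80e-06). CPC had 5.80 and 8.85 CPM against 1.92 and 1.43 CPM, a log2 fold change of 2.10 (SE 0.33, edgeR adjusted p = 0.00152). In each of these 3 genes the groups were apart, and CPC at step day 2.57 was above all other libraries of the series.

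MYB90 had 26.6 and 56.5 CPM at step day 2.57 against 19.9 and 20.8 CPM at step day 0.6, a log2 fold change of 1.01 (SE 0.26, edgeR adjusted p = 0.0230). Without replicate 2 of step day 2.57 it was 0.38 (adjusted p = 0.162), and without replicate 2 of step day 0.6 the adjusted p was 0.0505. TTG1 had 28.2 and 29.6 CPM against 22.4 and 20.1 CPM, a log2 fold change of 0.43 (SE 0.10, edgeR adjusted p = 0.0154). This call was lost without replicate 1 (0.0553) or replicate 2 (0.0963) of step day 2.57. GL3 had 3.55 and 3.26 CPM against 2.30 and 2.46 CPM and did not pass (0.50, SE 0.26), and neither did EGL3, MYB113 or MYB114.

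Against light 700, TTG1 and MYBL2 were still lower at step day 2.57, by log2 fold changes of -0.56 (SE 0.10) and -0.59 (SE 0.13), and CPC was higher by 2.40 (SE 0.33, edgeR adjusted p = 8.52e-05). PAP1 was higher by 1.02 (SE 0.12) and GL3 by 1.18 (SE 0.26). MYB90 was higher by 0.97 (SE 0.25), TT8 by 0.70 (SE 0.21) and EGL3 by 0.93 (SE 0.33), and these 3 calls depended on single libraries. In this comparison too, 3 of 4 leaf markers were higher (median 1.07), with summed levels of 47690 and 47982 CPM at step day 2.57, and GL2 was lower (-0.49, SE 0.16), and their part was not tested. Without replicate 2 of step day 2.57, MYB90 had 0.34 (adjusted p = 0.0904) and TT8 0.40 (0.220), and without replicate 1 of it EGL3 had 0.50 (0.345). Without replicate 1 of light 700 the adjusted p was 0.0604 for MYB90, 0.0579 for TT8 and 0.149 for EGL3, and without replicate 2 of light 700 it was 0.129 for TT8 and 0.121 for EGL3. TT8 also lost its call under total-count scaling (0.44, adjusted p = 0.127), where the median of all loci moved by -0.27.

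Against light 100 at step day 2.57, PAP1 was higher by 5.82 (SE 0.17), TT8 by 5.58 (SE 0.32), GL3 by 4.54 (SE 0.39), MYB113 by 4.16 (SE 0.46) and CPC by 3.14 (SE 0.36), and MYB90 was at least 322-fold higher, or at least 206-fold without replicate 2 of step day 2.57. MYBL2 and TTG1 were lower by log2 fold changes of -0.73 (SE 0.13) and -0.53 (SE 0.10). EGL3 was higher by 1.31 (SE 0.35), with an adjusted p of 0.121 without replicate 1 of step day 2.57 and 0.0800 without replicate 2 of light 100. MYB114, with 20 and 6 counts, passed with all libraries and had an adjusted p of 0.0713 without replicate 1 of step day 2.57 and 0.0558 without replicate 1 of light 100.

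**Figure D2:**
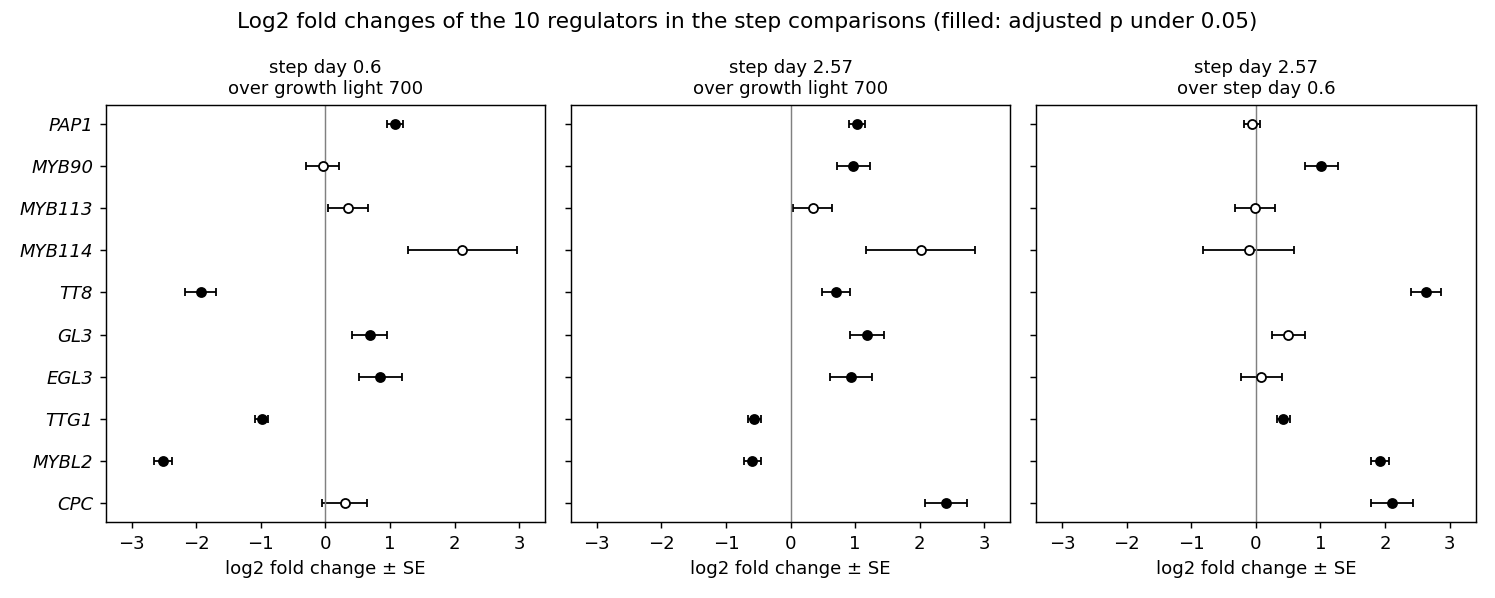
Log2 fold change with its SE (horizontal axes) of each regulator in the 3 step comparisons named above the panels, with filled points where the edgeR adjusted p was under 0.05. TT8 and MYBL2 lie at -1.93 and -2.52 at step day 0.6 over light 700 and at 2.63 and 1.93 at step day 2.57 over step day 0.6, where PAP1 lies at -0.05.

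Against light 700 at step day 0.6, most late anthocyanin genes had the sign of TT8 and not that of PAP1. MYBL2 (-2.52) and TTG1 (-0.99) had the sign of TT8 too, and which member the late genes follow was not tested. At step day 0.6 compared with light 700, 9 of 11 were lower and 1 was higher, with a median log2 fold change of -2.16 beside -0.02 over all loci. LDOX had 60.7 and 43.6 CPM at step day 0.6 against 345 and 307 CPM at light 700, a log2 fold change of -2.61 (SE 0.18, edgeR adjusted p = 5.19e-07). UF3GT changed by -2.16 (SE 0.19) and 5MAT by -2.19 (SE 0.16). The gene that was higher was SAT, which adds a sinapoyl group (0.56, SE 0.14), and the one that did not pass was UGT78D2, a glucosyltransferase (-0.11, SE 0.15); both are named after their values were seen.

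Against light 100 all 11 late genes were nonetheless higher at step day 0.6 (median 3.64). At step day 2.57 compared with step day 0.6 all 11 were higher again (median 2.79 beside 0.00 over all loci), with LDOX at 488 and 688 CPM. Against light 700, 10 of 11 were higher at step day 2.57 (median 0.73). Of the 6 early flavonoid genes, 3 passed at step day 0.6 compared with light 700, 2 higher and 1 lower, a share near the 53.4% of all loci that passed (26.8% higher, 26.6% lower). Of the early genes named above, F3H was higher by 0.57 (SE 0.17) and TT7, which hydroxylates the B ring, was lower by -2.60 (SE 0.22), while CHS did not pass (-0.28, SE 0.14).

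**Figure D3:**
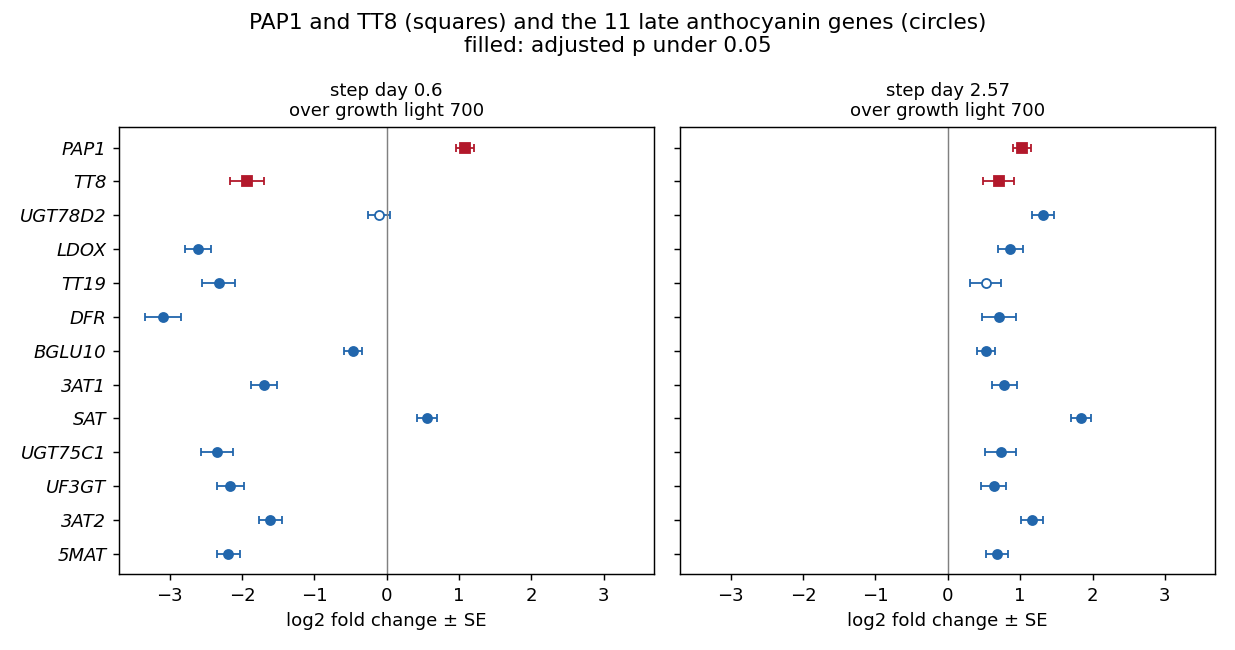
Log2 fold change with its SE (horizontal axes) of PAP1 and TT8 (red squares) and the 11 late anthocyanin genes (blue circles) in both step groups over light 700, filled where the edgeR adjusted p was under 0.05. At step day 0.6 PAP1 is at 1.08 while TT8 is at -1.93 and the late genes have a median of -2.16, and at step day 2.57 all points are above 0.

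For 1 pair of activator and repressor transcripts, the balance was described by the ratio of PAP1 to MYBL2 CPM within each library. Since the genes differ in length, the ratio ranks libraries but does not compare the 2 genes. It was 17.0 and 18.6 at step day 0.6, the highest of the series, and 4.62 and 4.40 at step day 2.57. At growth light it was 0.0499 and 0.0445 at light 100 and 1.05 and 0.893 at light 250, and 1.38 and 1.74 at light 450 and then 1.64 and 1.31 at light 700. The replicates of each group lay close together compared with the span between groups. In the diurnal groups it was 0.594 and 0.489 at day 0.083, 0.527 and 0.672 at day 0.25 and 7.85 and 6.48 at day 0.375. It was 1.48 and 1.35 at day 0.625, 5.50 and 4.39 at day 0.75 and 0.701 and 0.799 at day 0.916. The ratio of TT8 to MYBL2 ranked the groups otherwise. It was 1.17 and 0.744 at step day 0.6, 1.48 and 1.65 at step day 2.57 and 2.50 and 2.26 at diurnal day 0.375.

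**Figure D4:**
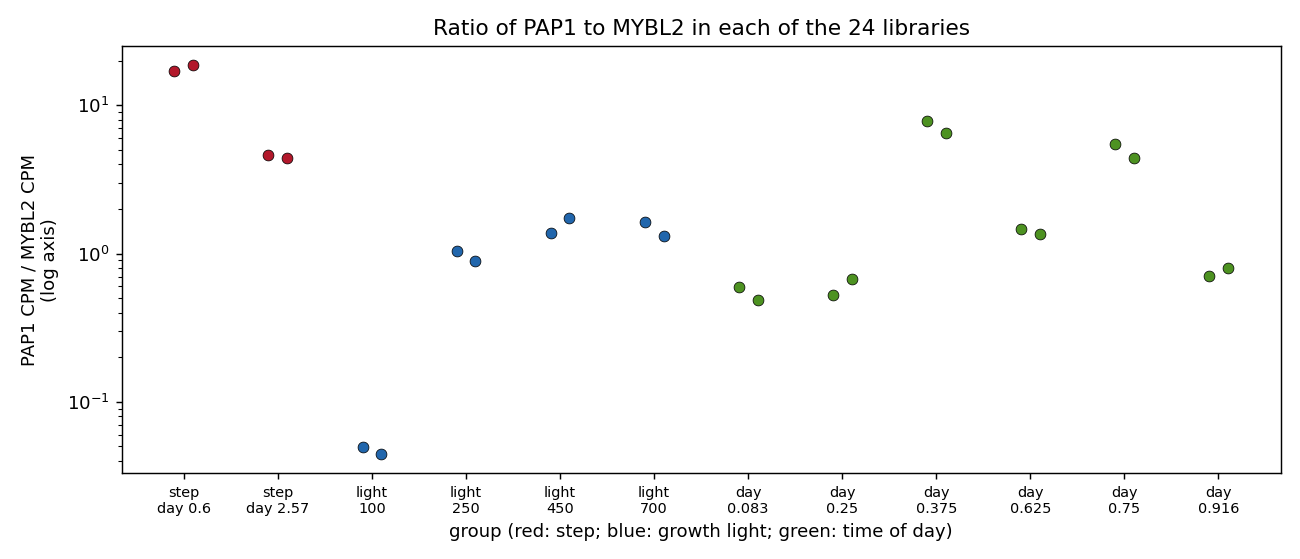
Ratio of PAP1 CPM to MYBL2 CPM (log axis) in each of the 24 libraries, with 2 points per group, for the step groups (red), the growth light groups (blue) and the diurnal groups (green). Step day 0.6 is highest at 17.0 and 18.6 and light 100 lowest at 0.0499 and 0.0445.

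Over the 6 diurnal labels at light 250, PAP1, TT8, GL3, TTG1 and MYBL2 varied, which is 5 of 10 members, with 60% of all 20958 loci passing. PAP1 had 13.2 and 14.6 CPM at day 0.083, 15.6 and 18.3 at day 0.25 and 30.4 and 32.5 at day 0.375. It had 36.9 and 30.4 CPM at day 0.625, 44.6 and 87.8 at day 0.75 and 18.9 and 9.81 at day 0.916. PAP1 was thus lowest at the first and the last labels and highest at day 0.75, a range of fitted means of 2.26 on the log2 scale (edgeR adjusted p = 0.000360).

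TT8 took nearly the opposite course over the first 4 labels. It had 27.1 and 27.8 CPM at day 0.083, 14.7 and 17.0 at day 0.25, 9.69 and 11.3 at day 0.375 and 12.8 and 11.0 at day 0.625. It had 16.8 and 41.1 CPM at day 0.75 and 38.6 and 21.3 at day 0.916, where the replicates were far apart. Its range was 1.50 (edgeR adjusted p = 0.00928). At day 0.625 compared with day 0.083, PAP1 was higher by 1.29 (SE 0.32, edgeR adjusted p = 0.00767) and TT8 lower by a log2 fold change of -1.18 (SE 0.36, edgeR adjusted p = 0.0216), the only 2 members called, with 41.9% of loci passing.

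Both calls depended on single libraries and neither on days 0.75 and 0.916, the diurnal groups whose replicates lay farthest apart. Without these days both stood, and MYB90 (-0.58, edgeR adjusted p = 0.00995) and GL3 (-1.12, edgeR adjusted p = 0.0247) were called lower too. Without replicate 1 of day 0.083 the adjusted p was 0.0561 for PAP1 and 0.0696 for TT8, and without replicate 1 of day 0.625 it was 0.0566 and 0.0782. TT8 was also lost without replicate 2 of day 0.083 (0.0757) or of day 0.625 (0.118). With the 4 similar MYB genes counted as 1 locus, the PAP1 change shrank to 0.24 (edgeR adjusted p = 0.699), since MYB90 had 38.9 and 26.8 CPM at day 0.083.

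MYB90 had 16.8 and 22.3 CPM at day 0.25, 25.2 and 24.7 at day 0.375 and 21.2 and 22.7 at day 0.625, and its replicates split widely at day 0.75 (29.4 and 111 CPM) and day 0.916 (56.2 and 17.3 CPM). It did not pass over the 6 labels (range 1.83, edgeR adjusted p = 0.0836). Without day 0.916 it passed (adjusted p = 0.00921), as did MYB113 (range 1.02, adjusted p = 0.0103). MYB90 also passed without replicate 1 of day 0.75 (0.00617), or without replicate 1 or replicate 2 of day 0.916 (0.00926 and 0.0105). Without replicate 1 or replicate 2 of day 0.916 MYB113 had 0.0128 and 0.00351, and without replicate 1 of day 0.75 CPC had 0.0417.

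MYBL2 fell to 3.87 and 5.02 CPM at day 0.375, against 22.2 to 29.9 CPM at days 0.083 and 0.25. It had 25.0 and 22.5 CPM at day 0.625, 8.10 and 20.0 at day 0.75 and 27.0 and 12.3 at day 0.916. Its range of 2.69 was the widest among the members that passed (edgeR adjusted p = 0.00342). Day 0.375 is thus low in both replicates and below all other diurnal libraries, and it holds the diurnal maximum of the PAP1 to MYBL2 ratio.

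GL3 ran between 0.425 CPM at day 0.625 and 3.37 CPM at day 0.25 (range 1.99, edgeR adjusted p = 0.0258). Its call was lost without replicate 2 of day 0.25 (0.0654), replicate 1 of day 0.375 (0.0513) or replicate 2 of day 0.625 (0.104), and its range was 2.73 without replicate 1 of day 0.625. TTG1 stayed between 30.6 and 41.2 CPM, a range of 0.37 (edgeR adjusted p = 0.0245), narrower than the median range of 0.85 over all loci. Its call was lost without either replicate of day 0.083 (0.0595 and 0.0578), either replicate of day 0.625 (0.105 and 0.0865) or replicate 1 of day 0.75 (0.0512). EGL3 ran between 0.426 and 2.03 CPM, CPC between 0.319 and 3.44 CPM and MYB114 between 1 and 12 counts, with edgeR adjusted p of 0.184, 0.172 and 0.278.

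**Figure D5:**
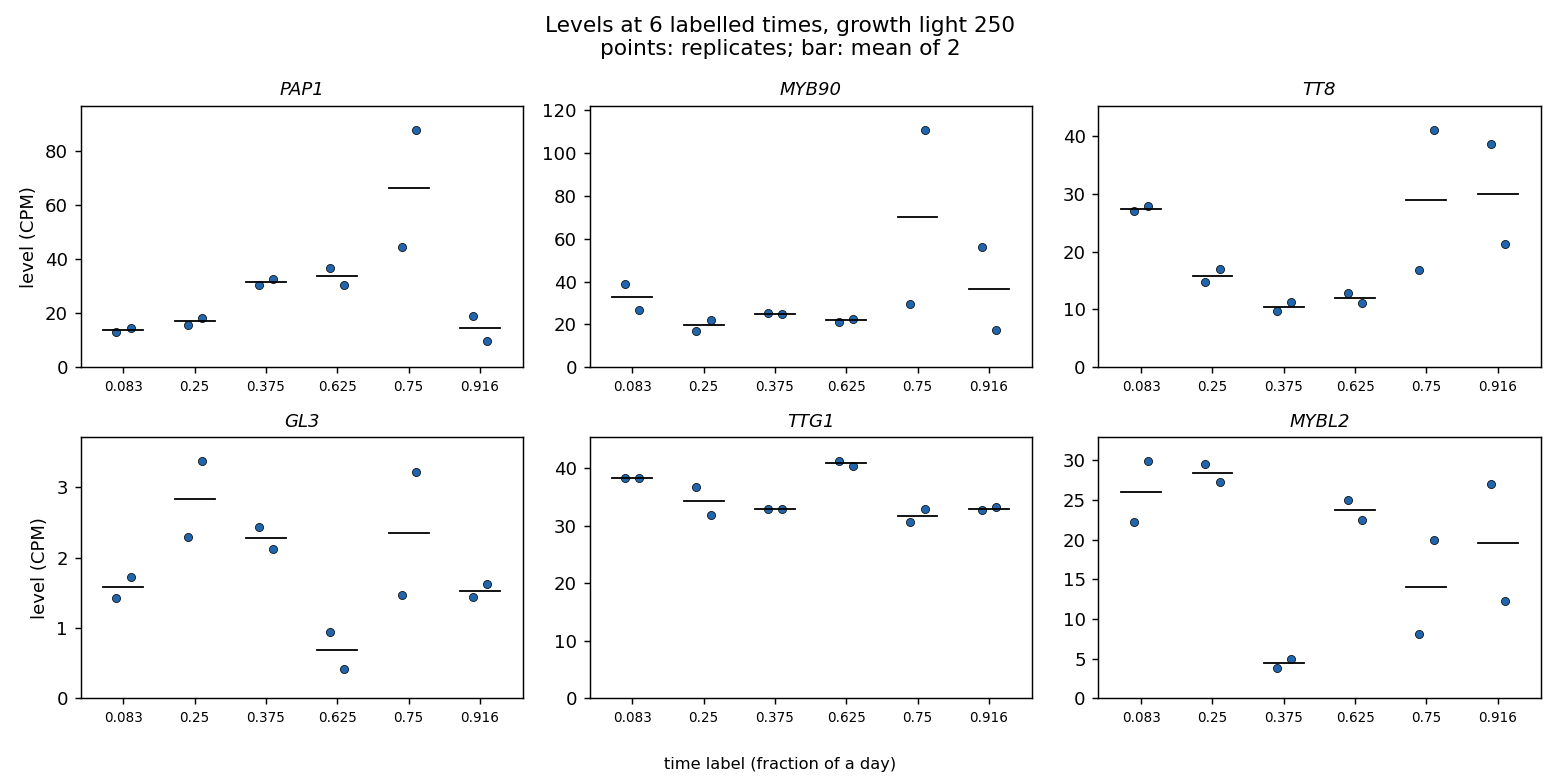
Level in CPM (vertical axes, each from 0) of 6 regulators at the 6 diurnal labels at light 250 (horizontal axis, fraction of a day), with 1 point per replicate and a bar at the mean of 2. MYBL2 is lowest at day 0.375 (3.87 and 5.02 CPM), and the replicates of PAP1, MYB90 and TT8 separate at day 0.75.

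At day 0.75 compared with day 0.25, PAP1, MYB90 and CPC were higher, by 1.95 (SE 0.32), 1.83 (SE 0.58) and 1.90 (SE 0.58) on the log2 scale, which is 3 of 10 members with 45.4% of loci passing and 21.5% higher. PAP1 kept its call in every alternative run, while the other calls rested on single libraries. The MYB90 adjusted p was 0.0240 and became 0.129 and 0.0761 without replicate 1 and replicate 2 of day 0.25 and 0.386 without replicate 2 of day 0.75, where the change was 0.58. The CPC adjusted p was 0.0211 and became 0.146 without replicate 2 of day 0.25 and 0.210 without replicate 2 of day 0.75, where the change was 1.02. Without replicate 1 of day 0.75 the changes were 2.53 for MYB90 and 2.50 for CPC, and without replicate 1 of day 0.25 CPC had 2.83. MYBL2 was just short of the threshold at -1.04 (SE 0.39, edgeR adjusted p = 0.0501) and passed without replicate 2 of day 0.75 (-1.82, adjusted p = 0.00486) or either replicate of day 0.916 (0.0115 for both). Without either replicate of day 0.916, TT8 (0.84; 0.0306 and 0.0308) and MYB113 (0.72; 0.0187 and 0.0167) were also called, and without replicate 1 of day 0.75 TT8 had 1.39 (0.00266). EGL3 had 1.82 (0.0389) without replicate 1 of day 0.25.

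Levels can be compared between genes only per length, here as mean CPM per kilobase of annotated exon. At light 700 the order was PAP1 (49.0), MYBL2 (26.5), TTG1 (22.9), MYB90 (21.3), TT8 (11.9), MYB113 (3.03), CPC (1.82), GL3 (0.560), EGL3 (0.476) and MYB114 (0.0942). Of the bHLH genes, TT8 was thus far above GL3 and EGL3, whose per-length levels were close to each other. At step day 0.6 PAP1 was at 101 and MYBL2 at 4.53 CPM per kilobase, whereas at light 100 PAP1 was at 1.70, MYBL2 at 28.6 and TTG1 at 22.0. Reads of EGL3 and TTG1 were spread over 3 transcript models each, with shares of 32.8%, 36.2% and 30.9% in EGL3 and 38.7%, 31.3% and 30.0% in TTG1, and each of the other members had counts in 1 model. How reads shared by models were counted is not given, so summed levels of EGL3 and TTG1 may be too high beside the other members.

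Other repressors and partners were read from fixed lists. Of the 6 other R3 MYB repressors, relatives of CPC, 4 passed at light 700 compared with light 100, 2 higher and 2 lower (median -0.49), where 40% of all loci passed, 19.7% higher and 20.3% lower. ETC3 was higher by 1.68 (SE 0.24) and TRY, a trichome repressor, by 1.36 (SE 0.35), and ETC2 was lower by a log2 fold change of -1.38 (SE 0.35). At step day 0.6 compared with light 700 the edgeR adjusted p of the 6 lay between 0.0915 and 0.891. TRY, like CPC, was higher at step day 2.57 than at step day 0.6 (1.07, SE 0.25, edgeR adjusted p = 0.0160), the only one of the 6.

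Of 8 other repressors of flavonoid genes, 7 passed at light 700 compared with light 100, 3 higher and 4 lower (median -0.14), beside the same 40% of all loci. The largest changes were in LBD39, LBD38 and LBD37, nitrate-induced repressors of PAP1 and MYB90, with log2 fold changes of -3.09 (SE 0.39), -1.96 (SE 0.21) and -1.71 (SE 0.14). LBD39 had 1.04 and 0.747 CPM at light 700 against 10.1 and 4.78 CPM at light 100. In the step groups it had 10.5 and 18.3 CPM at day 0.6, higher than at light 700 by 4.03 (SE 0.39, edgeR adjusted p = 4.28e-06). Against light 700 at step day 0.6, LBD37 did not pass (0.01, SE 0.12) and LBD38 was higher (1.22, SE 0.21). At step day 2.57 LBD39 had 12.7 and 16.3 CPM. PAP1 was highest of all groups in the step groups and lowest at light 100, and any link of LBD37, LBD38 or LBD39 to its level was not tested.

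Of the 9 epidermal and seed coat partners of the complex, 6 could be tested at light 700 compared with light 100, and 2 were higher (median 0.42), no larger a share than the 40% of all loci that passed there. TTG2, a WRKY factor downstream of the complex, was higher by 2.72 (SE 0.20) and MYB5, a seed coat and trichome MYB, by 1.18 (SE 0.39). TTG2 had 3.59 and 2.14 CPM at step day 0.6 against 12.1 and 10.5 CPM at light 700 (log2 fold change -1.94, SE 0.24) and 18.4 and 26.5 CPM at step day 2.57. GL1, the trichome MYB that binds the same bHLH proteins, stayed at 0.643 CPM or less, and TT2, their seed coat MYB, had at most 10 counts in a library.

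Over the means of the 12 groups, on log2(CPM + 1), members were ranked by Pearson correlation as a description only, since all libraries share one scaling. MYB90 went with MYB113 (r = 0.93) and with TT8 (r = 0.89), and TTG1 went with MYBL2 (r = 0.73). PAP1 and MYBL2 had r = -0.34. MYB114 and TTG1 had r = -0.82, but MYB114 had only 0 to 20 counts per library, so that value is uncertain. The 5 loci most like TT8 were 3AT1 (r = 0.99), TT7 (r = 0.99), UGT75C1 (AT4G14090, r = 0.98), DFR (r = 0.98) and LDOX (r = 0.98), all of them genes of the early and late lists. The 5 most like PAP1 were AT5G16990, AT1G61930, AT4G34588, GBF6 and AT1G57590. Their r ran from 0.956 to 0.962, and none of them was in these lists. AT4G34588 (5.33 to 35.5 CPM) and GBF6 (AT4G34590, 5.82 to 34.4 CPM) had nearly the same range of group means. Whether the same reads were counted for both was not tested. EGL3 was most like AT3G20490 (r = 0.92) and MYBL2 most like SNC4 (r = 0.94).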

How the data were processed

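The authors deposited raw read counts for every transcript, 1 column per lane, per the file headers. Bowtie2 and TAIR10 appear in the submitters' processing notes; the counting tool, the annotation release, the use of strand and the treatment of reads with several matches are not given in the sources used here. Of the counts from 1 to 10, 70.4% were even. A pair of step day 2.57 columns with the same name was joined to the second lanes by variance ratio (1.91 within a library, 7.14 to 7.16 between replicates).

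Transcripts and the 2 lanes were summed per locus and library. Tests were edgeR 4.0.16 quasi-likelihood F tests in R 4.3.3, with TMM scaling, filterByExpr and Benjamini-Hochberg adjustment over all loci. They were first run on simulated counts with the same spread at every locus, and with changes only at loci with ample counts. That run therefore does not cover calls at low counts or where replicates lay far apart. One fit held the 4 growth light groups, another the 6 diurnal groups and another the step groups with light 100 and 700. Alternatives were RLE and total-count scaling, DESeq2 1.42.0, other filters, a replicate block, single lanes, halved counts, 1 transcript model per locus, merged MYB genes, only the groups compared, and each library left out; leaving out diurnal labels was added after the data were seen.

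The members and lists were chosen with earlier results of these data known. Named from each list were the 3 loci with the largest change past the threshold at light 700 over light 100, and for PAP1, TT8, EGL3 and MYBL2 the loci most correlated with them. Gene models and sequences are RefSeq's, TAIR10.1; similarity was found with BLAST 2.17.0 (at least 85% identity over 100 bases).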

Additional observations from a re-analysis of the deposited data

How the results depend on the processing

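Of 2733 values of single members under alternatives, 2511 kept their direction and their side of the threshold, 107 lost a call, 64 gained one and 51 changed sign. No called change of a member changed sign; those that did had not passed. Counts of members called moved by over 1.5 times in these cases. Requiring at least 10 counts in every library left 2, 3 and 2 members called at light 700, 450 and 250 over light 100, 2 for the slope, and 6 for each step group over light 100, because genes low at light 100 were no longer tested. The slope had 0 without light 100. Lane 2 alone gave 3 over the diurnal labels. At day 0.625 over 0.083 the count was 4 with only the 2 groups compared and 4 without days 0.75 and 0.916. At day 0.75 over 0.25 it was 5 with total-count scaling, 5 with no filter beyond 1 read and 6 without day 0.916. With one library left out, the counts ran from 0 to 3 at light 700 over 450, 3 to 7 over the diurnal labels, 0 to 3 at day 0.625 over 0.083, 1 to 6 at day 0.75 over 0.25, 5 to 8 at step day 2.57 over light 700 and 3 to 5 at step day 2.57 over step day 0.6. The causes were not tested beyond the construction named.

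Values that changed sign were these log2 fold changes. Total-count scaling gave 0.072 for MYBL2 at light 700 over 100, 0.066 for its slope and 0.076 for TTG1 at day 0.75 over 0.25. The first transcript model alone gave EGL3 -0.23, -0.025 and -0.084 at light 700 over 100, 450 over 100 and 450 over 250, -0.073 for its slope and -0.13 at step day 2.57 over 0.6. Lane 1 alone gave MYBL2 -0.0064 and halved counts -0.0022 at light 450 over 100. Lane 2 alone gave EGL3 -0.12, -0.25, 0.16 and -0.12 at light 450 over 100, 450 over 250, 700 over 450 and step day 2.57 over 0.6, and -0.013 for its slope. It gave TTG1 -0.075 at light 450 over 250 and 0.016 at day 0.75 over 0.25, CPC -0.35 at day 0.625 over 0.083 and -0.093 at step day 0.6 over light 700, MYB90 0.12 there, and MYB113 0.27 at step day 2.57 over 0.6. Without light 100 the slopes of MYBL2 and TTG1 were 0.14 and -0.072. Counting the 4 MYB genes as 1 gave 0.16 for PAP1 at step day 2.57 over 0.6.

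With one library left out, values ran from -0.16 to 0.15 for MYBL2 at light 450 over 100, -0.14 to 0.47 for EGL3 at 250 over 100, -0.0023 to 0.021 for TTG1 and -0.14 to 0.60 for MYB113 at 450 over 250. At light 700 over 450 they ran from -0.52 to 0.12 for PAP1, -0.28 to 0.033 for MYBL2 and -0.95 to 0.045 for CPC, and for the MYBL2 slope from -0.040 to 0.023. They ran from -0.31 to 0.10 for MYBL2 and -0.39 to 0.64 for CPC at day 0.625 over 0.083, and -0.95 to 0.21 for GL3 at day 0.75 over 0.25. At step day 0.6 over light 700 they ran from -0.12 to 0.75 for MYB113, -0.13 to 0.87 for CPC and -0.12 to 0.016 for MYB90, and at step day 2.57 over light 700 from -0.014 to 0.73 for MYB113. At step day 2.57 over 0.6 they ran from -0.35 to 0.42 for EGL3, -0.34 to 0.43 for MYB113, -1.19 to 0.50 for MYB114 and -0.22 to 0.10 for PAP1.

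Outside the replicate block, replicate numbers were not used to pair samples. Deviations of same-numbered replicates correlated between -0.59 and 0.38 over 66 pairs of groups, with 19 over 0.1. These correlations cannot settle whether some groups are paired. With the replicate block, 5 members were called at step day 0.6 over light 700 and 6 at light 250 over 100, the other counts were equal to those without it, MYBL2 had -0.010 at light 450 over 100 and MYB113 0.030 at step day 2.57 over 0.6. Over all loci, calls at light 700 over 450 numbered 7, against 71 with DESeq2, 179 with no filter beyond 1 read, 33 with the replicate block, 12 with lane 1 alone, 1 with only the 2 groups compared and 2 to 930 with one library left out, the most without replicate 1 of light 450. At light 450 over 250 there were 1724, against 2790 with total-count scaling and 682 with only the 2 groups compared, and at step day 2.57 over 0.6 there were 3137, against 1586. Under total-count scaling the share of calls that were higher was 73.2% in place of 49.2% at light 700 over 100, 74.4% in place of 49.0% at 450 over 100, 65.4% in place of 49.6% at 250 over 100, 78.6% in place of 35.8% at 450 over 250 and 74.8% in place of 48.1% for the slope. It was 66.6% in place of 47.3% at day 0.75 over 0.25, 32.5% in place of 50.2% and 27.7% in place of 52.1% at step day 0.6 and 2.57 over light 700, and 40.0% in place of 50.2% at step day 2.57 over 0.6. Depth limits MYB114, MYB113, GL3, EGL3 and CPC most, which had 0 to 20, 4 to 174, 2 to 107, 10 to 89 and 9 to 258 counts per library.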
